A study of Mus musculus with 20 samples.

Results

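Rn45s is the assembled copy of the mouse 45S ribosomal RNA gene on chromosome 17, and its methylation is described here over a window of 7000 bp (mm9 build) to which bisulfite reads of the ribosomal DNA repeats map, whose positions with any read span chr17:39979959-39985755. Members were CpG positions of that window chosen by read depth, with at least 5 reads. Of 1123 positions with any read, 1011 reached 5 reads in at least 1 of the 20 libraries and 487 (48.2%) reached it in all 20. Another 430 reached it in 2 to 19 libraries and 94 in 1 library. The 487 shared positions, of 68068 nuclear positions shared by all libraries, lie between 39979959 and 39985744 and carry the values below. No annotation of mm9 was used, so no position is assigned to a spacer, promoter or transcribed part of the repeat.

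The genes for the large ribosomal RNA precursor are present as tandem arrays of near-identical copies on several chromosomes and are transcribed by RNA polymerase I. In somatic cells some copies are silent and carry CpG methylation while others are active and unmethylated, so that a level between 0% and 100% at this window is a mean over many copies, cells and alleles. Tet3 is the dioxygenase of the oocyte and zygote that oxidises 5-methylcytosine. Bisulfite sequencing reads 5-methylcytosine and 5-hydroxymethylcytosine alike, so the first oxidation product counts as methylated here.

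The libraries were reduced representation bisulfite libraries, which sample CpG-rich fragments released by the enzyme MspI, from gametes and from single pronuclei pooled by parent; a pronucleus is the nucleus of 1 parental genome in the zygote. The question of the study, per its title, is the role of Tet3 and of replication in the loss of methylation from both parental genomes. There are 10 groups of 2 libraries: sperm, oocytes, and the paternal and maternal pronuclei of 2 genotypes and 2 treatments. Nothing in the labels says that replicate libraries were taken from separate animals, or that the pronuclei of both parents came from the same zygotes, so the tests measure only the spread between these libraries.

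WT zygotes came from oocytes of f/f females and CKO zygotes from oocytes of f/- females with Zp3-Cre, a Cre driven by the promoter of an egg-coat gene that is active in growing oocytes. The females were 7 to 10 weeks old and superovulated. All pronuclear groups shared C57BL/6J sperm from the caudal epididymis. Aphidicolin groups were cultured with 3 µg/ml of this inhibitor of replicative DNA polymerases from 5 hours after fertilisation, and mock groups without it. Pronuclei were isolated at 12 hours, and the parents were told apart by pronuclear size and distance from the second polar body. Libraries typically came from about 20 pronuclei and 21 cycles of PCR. Sperm and oocytes are labelled WT and mock, and how they were collected for sequencing is not given separately. The files hold no measurement of Tet3 itself, so the genotype labels were not checked.

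The window was read far more deeply than single-copy sequence. It took between 2.61% and 4.01% (median 3.09%) of the 22431861 to 68056783 CpG calls of a library, and the median reads per shared position lay between 1420 and 4136, against 27 to 74 at all other shared nuclear positions. Of the 487 positions 441 had at least 100 reads in every library and 304 at least 1000. For the level pooled over all calls of the window the 95% Wilson interval was at most 0.083 percentage points to either side, which covers counting error only, since PCR copies of a molecule were not marked. At the edge of the depth rule the pooled level of positions with 1 to 4 reads was 21.5% to 85.3% over the libraries and that of positions with 5 to 9 reads 5.71% to 99.6%.

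The window was partly methylated in every library, between 8.65% and 21.2% (median 15.7%), where the level is the mean percent methylated over the 487 positions, each weighted equally. The WT paternal mock pronucleus had the lowest group mean, 9.30% ± 0.914 (SD, n = 2). It was followed by WT maternal aphidicolin at 10.2% ± 0.226, CKO maternal mock at 13.3% ± 3.41, WT maternal mock at 14.8% ± 1.44 and CKO maternal aphidicolin at 14.9% ± 3.38. Sperm stood at 16.5% ± 4.14, WT paternal aphidicolin at 18.1% ± 3.36, CKO paternal aphidicolin at 18.8% ± 3.32, oocytes at 19.2% ± 1.11 and CKO paternal mock at 19.6% ± 0.461. In this order the first 3 groups did not overlap one another, with gaps below 1 point, while from CKO maternal mock upward the libraries of every pair of neighbours overlapped. With 2 libraries against 2 the smallest p an exact permutation test can give is 0.33, so no single pair of groups can pass a threshold, and the lowest and highest of the 4 library-by-library differences are given in its place.

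**Figure D1:**
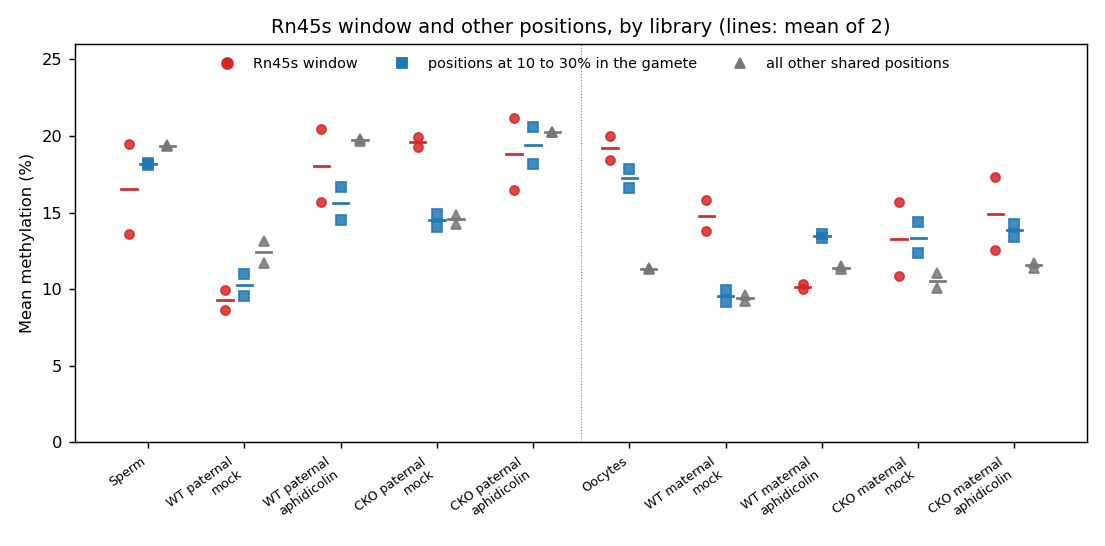
Mean methylation in percent (vertical axis) for each of the 20 libraries by group, for the Rn45s window (circles), for positions at 10% to 30% in the gamete of the same parent (squares) and for all other shared positions (triangles), with lines at the mean of 2 libraries. The window lies at 9.94% and 8.65% in WT paternal mock libraries and at 19.3% and 19.9% in CKO paternal mock libraries, and its 2 libraries differ by over 4 points in 5 of the 10 groups.

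Replicates differed at this window by far more than counting error. Sperm libraries measured 13.6% and 19.5%, and 471 of the 487 positions were higher in replicate 2. The same 2 libraries differed by 0.108 points at comparator positions, defined as the 2027 nuclear positions outside the window whose mean in sperm lies between 10% and 30% (for maternal libraries, the 3641 positions in that range in oocytes), and by 0.024 points over all other shared positions. In 5 of the 10 groups the 2 libraries were more than 4 points apart at the window, against at most 2.35 points at comparator positions in any group. The spread was larger at the window than at the comparator in 8 of 10 groups and larger than at all other positions in 9 of 10, but those are means over many more positions. Among other windows of 7000 bp with a level of 5% to 50%, which are mostly read far less deeply, over 50% spread more than Rn45s in 8 of 10 groups, for example 13 of 17 in oocytes and 19 of 22 in CKO paternal mock. In sperm 2 of 7 did. Chi-square per degree of freedom over positions lay between 9.71 and 57.7 for the 10 pairs, so no pair agreed within sampling noise.

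The gametes overlapped at the window. Sperm libraries measured 13.6% and 19.5% and oocyte libraries 20.0% and 18.4%, a difference of -2.68 points (-6.39 to 1.03).

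After fertilisation the paternal level in WT mock zygotes was lower than in sperm. The pronuclear libraries measured 9.94% and 8.65%, and the sperm libraries 13.6% and 19.5%. The groups did not overlap, and the mean difference was -7.24 points (-10.8 to -3.66), which left 56.2% of the sperm level. All other positions kept 64.2% of theirs, and comparator positions, which were chosen by their sperm level, kept 56.7%. Without the 100-bp tiles of the window that an earlier analysis of these data had called, the difference was -3.73 points. At 112 of the 487 positions (23.0%) both pronuclear libraries lay below both sperm libraries with means at least 10 points apart, against a background of 13.3 percent of the other shared positions and 63.4 percent of comparator positions. That count rests on the sperm library used: it was 34 without sperm replicate 2 and 229 without sperm replicate 1. It includes positions of the tiles called earlier and was not made without them.

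In CKO mock zygotes the paternal window stood near or above sperm. The libraries measured 19.3% and 19.9%, beside 13.6% and 19.5% in sperm. These ranges overlap, with a difference of 3.08 points (-0.175 to 6.34). At comparator positions CKO paternal mock was 3.67 points below sperm, with 4 of 4 library differences below 0. No position of the window lay at least 10 points below sperm without overlap, where the background was 13.7 percent of other positions and 42 percent of comparator positions. Above sperm lay 21 positions (4.31%), against 2.45 percent of other positions and 9.32 percent of comparator positions.

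The difference between genotypes was widest in replicating paternal pronuclei. CKO libraries at 19.3% and 19.9% lay above WT libraries at 9.94% and 8.65%, by 10.3 points (9.35 to 11.3), compared with 4.19 points at comparator positions and 2.14 points over all other positions. Without the tiles called earlier it was 6.33 points. At 246 of the 487 positions (50.5%) both CKO libraries were higher than both WT libraries by means at least 10 points apart, against a background of 5.97 percent of the other shared positions and 14.2 percent of comparator positions. None was lower, where the background was 2.78 percent. The 246 include positions of the tiles called earlier, and no count was made without them. Of 173 other windows of 7000 bp with at least 20 shared positions, 2 had a larger difference.

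Positions methylated in oocytes only read higher in 1 of the CKO paternal mock libraries. At the 1634 positions methylated in oocytes (at least 75%) and not in sperm (at most 25%), the libraries of CKO paternal mock read 11.4% and 4.6%, and those of WT paternal mock 3.20% and 4.57%. Sperm read 3.48% and 3.41% at these positions, and CKO paternal aphidicolin 10.5% and 4.63%. Without CKO paternal mock replicate 1, the library with 11.4%, the difference at Rn45s was 10.6 points. The part of this signal in the genotype difference at the window was not tested. Oocytes read 20.0% and 18.4% at Rn45s, around the CKO paternal libraries.

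**Figure D2:**
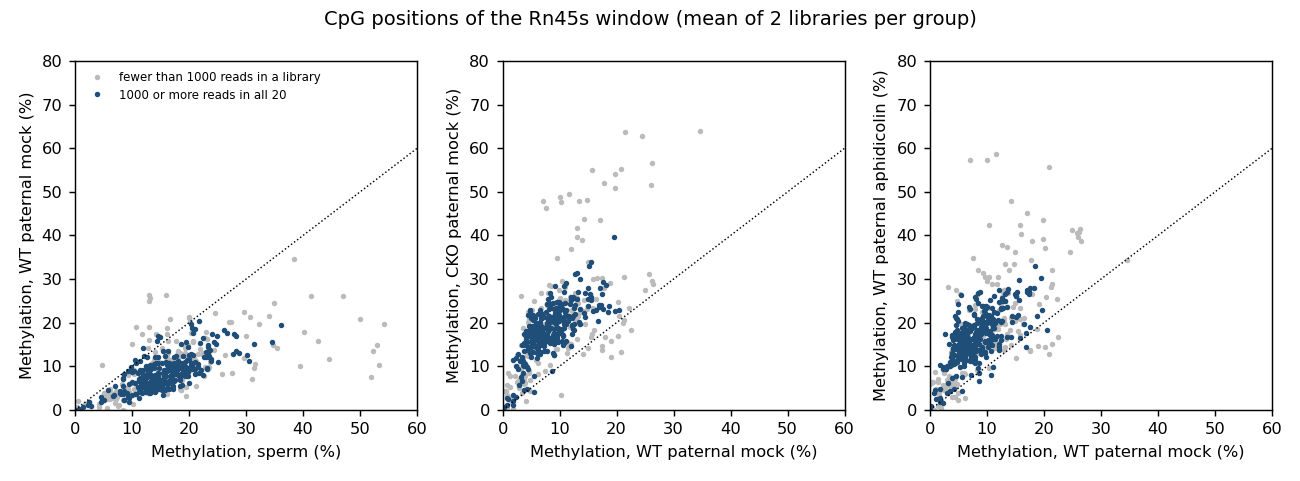
Methylation in percent at single CpG positions of the window (mean of 2 libraries a group) for WT paternal mock against sperm, CKO paternal mock against WT paternal mock, and WT paternal aphidicolin against WT paternal mock, with positions of at least 1000 reads in all 20 libraries in dark blue and the dotted line marking equality. In the middle panel 464 of 487 positions lie above the line, and 1 position lies outside the axes in each panel.

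Aphidicolin was likewise accompanied by a higher paternal level in WT zygotes. The treated libraries measured 20.4% and 15.7% and the mock libraries 9.94% and 8.65%, a difference of 8.76 points (5.74 to 11.8), or 5.08 points without the tiles called earlier. The same libraries differed by 5.30 points at comparator positions and by 7.32 points over all other positions. The treated libraries overlapped those of sperm. At 167 positions (34.3%) both treated libraries were higher than both mock libraries by means at least 10 points apart, against a background of 9.94 percent of the other shared positions and 7.84 percent of comparator positions, and at 0 positions lower, against 0.882 percent. The count was 108 without treated replicate 1 and 261 without treated replicate 2. It also includes positions of the tiles called earlier. This comparison and the one between genotypes share the 2 WT paternal mock libraries, so their counts are not independent of each other. Files of mock pronuclei list chromosomes in sorted order and those of aphidicolin pronuclei and of gametes do not, so a difference in processing cannot be told apart from the treatment or from the step between gamete and mock zygote.

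With both CKO and aphidicolin the paternal libraries overlapped those of either alone. CKO paternal aphidicolin libraries measured 21.2% and 16.5%. They differed from WT paternal aphidicolin by 0.782 points (-3.94 to 5.50) and from CKO paternal mock by -0.782 points (-3.45 to 1.89), with overlap in both. At comparator positions aphidicolin was accompanied by a level 4.89 points higher in CKO paternal pronuclei, with no overlap. The genotype difference was 9.54 points larger in mock than in aphidicolin paternal pronuclei (exact permutation p = 0.278 over 36 arrangements, smallest possible 0.0556; chosen after the values were seen).

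The maternal window of WT mock zygotes was also lower than that of the gamete. WT maternal mock libraries measured 15.8% and 13.8% and oocytes 20.0% and 18.4%. They did not overlap, and the difference of -4.41 points (-6.21 to -2.61) left 77% of the oocyte level. All other positions kept 82.9% of theirs, and comparator positions, which were chosen by their oocyte level, kept 55.5%. At 47 positions (9.65%) both pronuclear libraries lay below both oocyte libraries by means at least 10 points apart, where the background was 5.09 percent of other positions and 26 percent of comparator positions. The count was 81 without WT maternal mock replicate 1 and 76 without oocyte replicate 2. CKO maternal mock libraries measured 10.9% and 15.7%, also below oocytes (-5.94 points, -9.14 to -2.75), and they overlapped those of WT maternal mock (difference -1.53 points).

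Under aphidicolin the WT maternal window was lower than in mock, the opposite direction to the paternal window. The treated libraries measured 10.3% and 10.0% and the mock libraries 15.8% and 13.8%, a difference of -4.63 points (-5.81 to -3.45). Comparator positions were 3.91 points higher under aphidicolin in the same libraries and all other positions 2.02 points higher. Each of the 173 other windows had a difference above that of Rn45s, an order that was not tested. Both treated libraries lay below both mock libraries by means at least 10 points apart at 53 positions (10.9%), against a background of 1.04 percent of other positions and 5.11 percent of comparator positions, and at 8 (2.63%) of the 304 positions with at least 1000 reads. The 53 became 80 without WT maternal mock replicate 2.

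CKO maternal aphidicolin libraries measured 12.5% and 17.3%. They were higher than those of WT maternal aphidicolin, 10.3% and 10.0%, by 4.76 points (2.21 to 7.31). At 43 positions (8.83%) the libraries did not overlap and the means were at least 10 points apart, where the background was 1.27 percent of other positions and 4.94 percent of comparator positions, and that count ranged from 27 without CKO maternal aphidicolin replicate 2 to 117 without its replicate 1, and was 71 without WT maternal aphidicolin replicate 1. Against CKO maternal mock they overlapped, with a difference of 1.66 points. Sperm-methylated positions, 6708 positions at 75% or more in sperm and 25% or less in oocytes, read 9.92% and 11.1% in CKO maternal mock libraries and 10.0% and 6.49% in CKO maternal aphidicolin libraries, beside 4.25% and 4.38% in WT maternal mock and 5.71% and 5.66% in WT maternal aphidicolin. The part of this in the window's maternal genotype difference was not tested.

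Across the 16 pronuclear libraries, 8 stratified exact permutation tests of the window level gave no call after Benjamini-Hochberg adjustment. Each rearranged labels within 4 strata, with a smallest possible p of 0.00154. CKO exceeded WT by 3.58 points, in 12 of 16 library differences (exact permutation p = 0.073, adjusted p = 0.325). Paternal exceeded maternal by 3.16 points (exact permutation p = 0.122, adjusted p = 0.325), and aphidicolin exceeded mock by 1.25 points (exact permutation p = 0.491, adjusted p = 0.654). None of the 8 had an adjusted p under 0.05 in any of the 27 alternatives run.

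The tests of unequal change gave the same answer. The aphidicolin difference was 5.47 points larger in paternal than in maternal pronuclei (exact permutation p = 0.122, adjusted p = 0.325). The CKO difference was 3.94 points larger in paternal than in maternal pronuclei (exact permutation p = 0.301, adjusted p = 0.481) and 1.62 points larger in mock than under aphidicolin (exact permutation p = 0.674, adjusted p = 0.747). Set against comparator positions in the same libraries, the aphidicolin difference at the window was -2.39 points (exact permutation p = 0.204, adjusted p = 0.407) and the CKO difference 0.548 points (exact permutation p = 0.747, adjusted p = 0.747). A p that misses the threshold does not show that these levels are equal, and the spread of up to 5.86 points between libraries of a group limits what can be seen.

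Single positions covered a narrow band. The mean level over the 20 libraries had quartiles of 11.7%, 14.8% and 17.9%, with 25 positions below 5%, 434 between 5% and 30%, and 28 above 30%. Of those 28 only 1 had at least 1000 reads in every library. The highest mean, 63.9% at position 39985400, ranged from 0.704% to 100% between libraries at a median of 71 reads, and the next, 48.5% at 39982608, rested on a median of 35 reads. The lowest were 39982679, at 0.00503% on a median of 2777 reads, and 39981844, at 0.387%.

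The positions with the widest genotype difference among paternal mock libraries were 39983027, 39982603 and 39983026. At 39983027 WT libraries read 26.1% and 16.8% and CKO libraries 59.4% and 68.0%. At 39982603, with a median of 35 reads, they read 11.4% and 2.82%, and 49.0% and 46.8%. At 39983026 they read 17.9% and 13.6%, and 51.6% and 58.5%. These positions were chosen for a large difference without overlap, so the gap between genotypes was set by the choice. They all lie within the tiles called earlier. Positions 39983026 and 39983027 are adjacent bases. Position 39982181, also in those tiles, was chosen after its values were seen, for at least 1000 reads in every library and a wide genotype difference. It read 11.2% and 7.29% in WT paternal mock and 28.9% and 27.7% in CKO paternal mock. WT paternal aphidicolin read 24.6% and 23.2% there, and sperm 17.8% and 24.3%. Position 39985416, equally deep, had a wider difference (20.3 against 19.0 points). It read 14.6% and 24.4% in WT and 37.6% and 41.9% in CKO paternal mock.

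Along the window, levels were taken in 13 bins of 500 bp with at least 5 shared positions. The gametes shared a trough, while the peaks differed between groups. Sperm had its 2 highest means in the bins 39984500 to 39984999, at 17.8% and 23.8%, and 39983000 to 39983499, at 17% and 24.6%, which were not distinguishable, and was lowest in the bin 39984000 to 39984499, at 7.27% and 8.68%. The oocyte profile was highest in the bin 39983000 to 39983499, at 29.9% and 25.5%. Both gametes had their lowest bin at 39984000.

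The lower level of the WT paternal mock pronucleus was uneven along the window. In the bin 39982500 to 39982999, with 80 positions, its libraries read 8.99% and 7.43% and sperm 17% and 22.6%, so 41.4% of the sperm level remained. CKO paternal mock read 21.9% and 23.1% there, and WT paternal aphidicolin 25.9% and 18.7%. In the bin 39980000 to 39980499, 85.9% of the sperm level remained (10.5% and 9.87% against 8.82% and 14.9%), and the libraries overlapped. The bin at 39982500 lies almost wholly within the tiles called earlier and the bin at 39980000 outside them. This contrast along the window is therefore a description. The CKO to WT difference in paternal mock pronuclei was above 0 in all 13 bins. It ranged from 2.94 points in the bin at 39983500 to 14.4 points in the bin at 39983000. The bin at 39983000 lies partly within the tiles called earlier, and the bin at 39983500 outside them.

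**Figure D3:**
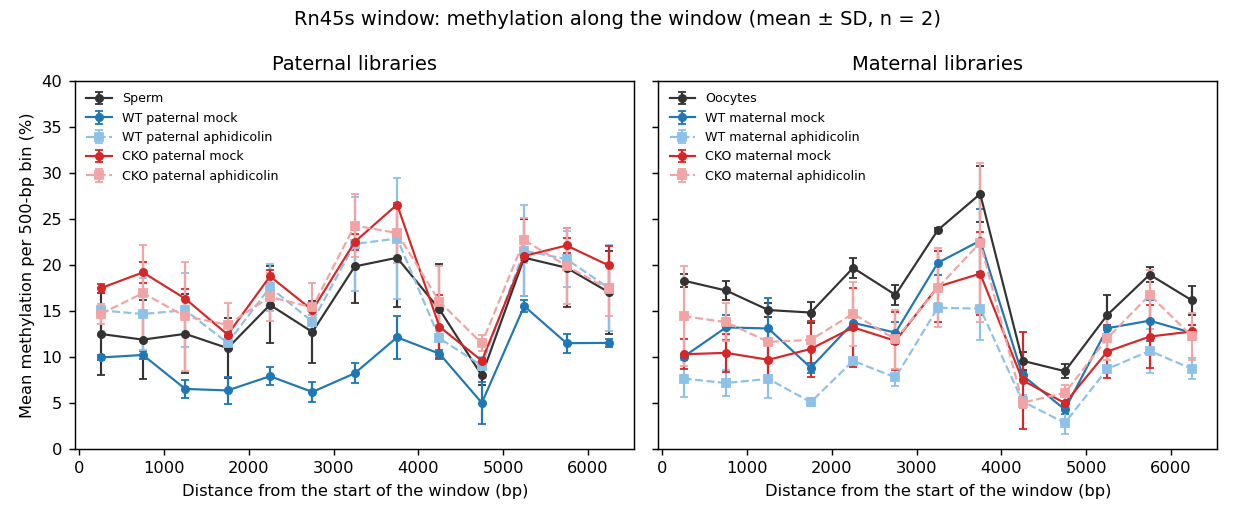
Mean methylation in percent per 500-bp bin against distance in bp from the start of the window, for the paternal libraries with sperm (left) and the maternal libraries with oocytes (right), with points at the mean and bars at the SD of 2 libraries. The WT paternal mock line lies lowest on the left. As a share of sperm it is lowest in the bin centred at 3250 bp, where 41.4% of the sperm level remained. That bin lies almost wholly within the tiles called earlier. On the right WT maternal aphidicolin has the lowest mean in 12 of 13 bins.

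One stretch of the window differed by parent of origin. To ask this, 500-bp bins over all shared nuclear positions (4657 bins with at least 5 positions) were tested after the profile had been seen, with the same stratified exact permutation over the 16 pronuclear libraries and adjustment over all 4657. In the bin 39984500 to 39984999, with 22 positions, paternal libraries ranged from 15% to 25% (median 20.9%) and maternal libraries from 8.38% to 13.7% (median 11.5%). Every paternal library lay above every maternal one. The difference was 9.08 points (exact permutation p = 0.00154, the smallest possible, adjusted p = 0.0361), and adjusted p-values over 20 alternatives ranged from 0.00887 to 0.172, the latter, with the replicate number as a block, being the only one above 0.05. All 22 positions had a higher paternal than maternal mean, and at 1 of them every paternal library lay above every maternal one.

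This was 1 of the 13 bins of the window, where the background of bins called higher in paternal libraries was 2.17 percent. Of the 345 bins elsewhere with a mean of 5% to 30%, 9.86 percent also had all 8 paternal above all 8 maternal libraries, so such a bin is not rare at this level of methylation. The neighbouring bins at 39983500 and 39984000 had differences of 6.51 and 4.24 points (exact permutation, adjusted p = 0.0675 and 0.0716) and did not pass. The other 10 bins had differences between 1.42 and 5.15 points, all above 0, and none passed.

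Gametes, which did not enter that test, had the same order in the bin. Sperm read 17.8% and 23.8% and oocytes 16.1% and 13.0%, and 21 of the 22 positions were higher in sperm. Over the other 12 bins of the window, in contrast, sperm read 11.9% and 17.5% and oocytes 17.9% and 16.5%. The bin minus the mean of the other 12 bins was 5.91 and 6.23 points in sperm, -1.81 and -3.49 points in oocytes, 2.78 to 7.56 points in the 8 paternal pronuclear libraries and -1.51 to 1.13 points in the 8 maternal ones. The bin was chosen for its parental difference, so these within-window values are a description. With 2 sperm and 2 oocyte libraries the smallest exact p is 0.33.

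**Figure D4:**
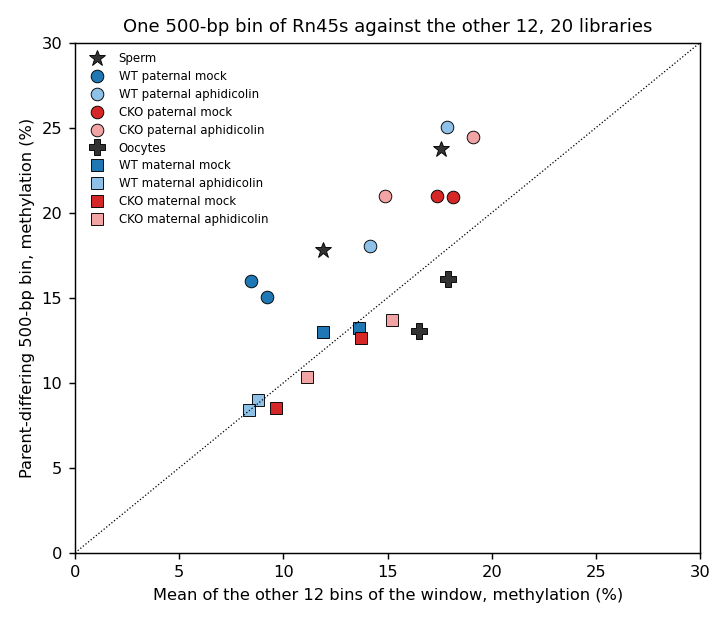
Methylation in percent of the bin 39984500 to 39984999 (vertical axis) against the mean of the other 12 bins of the window (horizontal axis) in each of the 20 libraries, with circles for paternal and squares for maternal pronuclei, stars for sperm, crosses for oocytes and a dotted line at equality. Sperm and all 8 paternal pronuclear libraries lie above the line, by 2.78 to 7.56 points. The 8 maternal pronuclear libraries lie within 1.51 points of it, and oocytes lie below it, at -1.81 and -3.49 points.

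In the same test no bin of the genome passed for genotype or treatment. For CKO against WT 0 of 4657 bins were called by the exact permutation test after adjustment and 68 (1.46 percent) had an unadjusted p under 0.05, among them 4 of the 13 bins of Rn45s. All 13 bins had CKO above WT, by 1.57 to 4.66 points. The smallest possible exact permutation p, 0.00154, was reached by 2 bins of the 4657. Among them was the Rn45s bin 39984000 to 39984499, with a difference of 2.74 points. For aphidicolin against mock 0 bins were called and 126 (2.71 percent) had an unadjusted p under 0.05, none of them in Rn45s, where 10 of 13 differences were above 0. The smallest possible p was reached by 13 bins. So few bins at that p cannot pass an adjustment over 4657 bins. The absence of calls for genotype and treatment therefore does not show that no bin differed.

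Of the 173 windows of 7000 bp elsewhere, the one whose level moved most like Rn45s was chr11:108871000-108877999. Pearson's r was 0.898 over the 20 libraries. The next most alike, at 0.576 and 0.566, start at 86562000 on chromosome 17 and 166425000 on the X chromosome. Group means of that chromosome 17 window lay between 0% and 2.00%, so it was almost unmethylated. Those of the X window lay between 15.8% and 68.2%. The chromosome 11 window has 29 shared positions, between 108873013 and 108873298, and a median of 4147 reads a position, and it is the only one of the 173 read more deeply than Rn45s. Both windows are partly methylated, read very deeply and come from the same libraries, and this correlation is a description.

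Its levels were alike in several groups and not in all. Sperm read 11.5% and 17.2%, WT paternal mock 8.16% and 7.61%, CKO paternal mock 17.1% and 17.6%, and WT paternal aphidicolin 18.2% and 10.6%. The CKO to WT difference in paternal mock pronuclei was 9.45 points (8.97 to 9.94), and the WT maternal level was 3.30 points lower under aphidicolin than in mock. CKO maternal aphidicolin read 10.1% and 10.1% against 12.5% and 17.3% at Rn45s, CKO paternal aphidicolin 15.0% and 13.8% against 21.2% and 16.5%, and sperm minus oocytes was 0.983 points against -2.68.

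**Figure D5:**
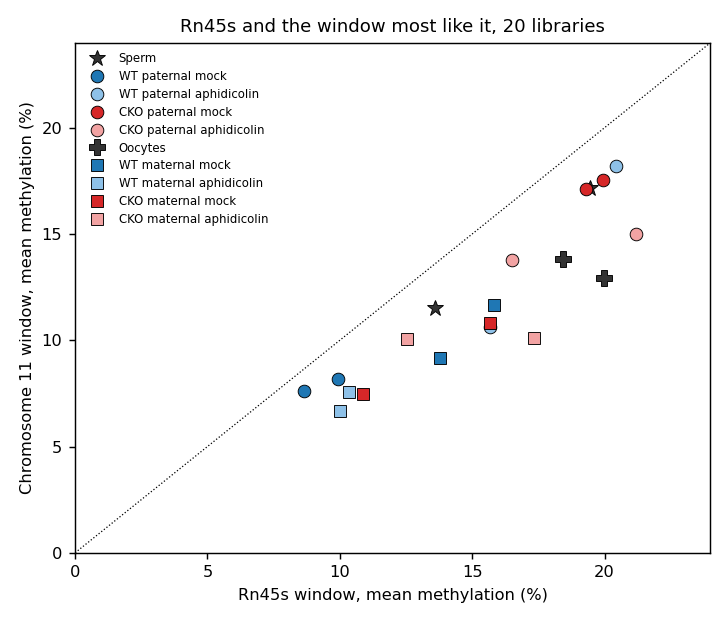
Mean methylation in percent of the chromosome 11 window (vertical axis) against that of the Rn45s window (horizontal axis) in the 20 libraries, with circles for paternal and squares for maternal pronuclei, stars for sperm, crosses for oocytes and a dotted line at equality. All 20 points lie below the line (r = 0.898), with WT paternal mock at 8.16% and 7.61% and CKO paternal mock at 17.1% and 17.6% on the vertical axis.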

How the data were processed

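Trim Galore, Bismark 0.10.1 and the mm9 build are named in the submitters' processing notes; read filters and removal of duplicates are not stated there. The authors deposited, for every CpG, methylated and unmethylated call counts and the percent methylated, without normalisation. Levels were computed here from the deposited counts at the shared positions (5 reads or more in every library), weighting positions equally. Tests were exact two-sided permutations within strata with Benjamini-Hochberg adjustment over 8 tests of the window, or over 4657 bins, checked on simulated data, with Python 3.11.15, NumPy 2.4.6, SciPy 1.17.1 and pandas 2.3.3. Named were the 2 positions with the highest and the 2 with the lowest mean, the 3 with the largest paternal mock genotype difference without overlap, the sperm bins at the extremes and the 3 windows most alike. Alternatives were other coverage minimums (10, 100, 1000), pooled calls, medians, log odds, own positions, other differences (5 and 20 points), a replicate block and each library left out. The members, lists and bins were chosen with earlier results of these data known.

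Deviations of same-numbered libraries were compared across positions in 9 comparisons of groups. Pearson's r lay between -0.021 and 0.036 over all shared positions and between -0.177 and 0.210 within the window. The main tests therefore did not take replicate numbers to pair libraries. Such a correlation cannot see a shift shared by all positions. At the window, replicate 1 minus replicate 2 was 4.75 and 4.69 points in WT and CKO paternal aphidicolin. It was -4.82 and -4.78 points in CKO maternal mock and aphidicolin, but 1.29 and -0.652 points in WT and CKO paternal mock. Whether replicate numbers pair libraries was not settled.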

Additional observations from a re-analysis of the deposited data

Results flagged for a closer look

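The WT aphidicolin differences of the parents went opposite ways. In maternal pronuclei both treated libraries (10.3% and 10.0%) lay below both mock libraries (15.8% and 13.8%), and in paternal pronuclei both treated libraries (20.4% and 15.7%) lay above both mock libraries (9.94% and 8.65%). The maternal difference minus the paternal one was -13.4 points. Its exact permutation p over these 8 libraries was 0.0556, the smallest that 36 arrangements can give, in a contrast chosen after the values were seen. In CKO pronuclei the paternal difference minus the maternal one was -2.44 points (exact permutation p = 0.556). Taken in that order the WT value is 13.4 points.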

How the results depend on the processing

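Each of the 8 tests of the window level had an adjusted p above 0.05 under every alternative. The sign turned for the aphidicolin difference against comparator positions with the median over positions (1.13 points). Without the tiles that an earlier analysis of these data had called it turned for the CKO difference between mock and aphidicolin (-0.809 points), for CKO against comparator positions (-0.0167 points) and for CKO paternal aphidicolin against mock (0.172 points). With each library's own positions it turned for sperm against oocytes (0.270 points). With these positions WT maternal mock libraries (19.1% and 14.2%) overlapped oocytes (21.5% and 18.9%). WT maternal aphidicolin libraries (15.7% and 10.9%) then overlapped WT maternal mock and CKO maternal aphidicolin (14.7% and 16.7%). The signs of these maternal differences stayed, but the separation did not. The cause was not tested.

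Counts of positions without overlap depend on the size asked. All were made with the tiles called earlier kept in. At 5 and at 20 points they were 305 and 15 for WT paternal mock below sperm, 388 and 28 for CKO above WT paternal mock, 324 and 24 for WT paternal aphidicolin above mock, 204 and 1 for WT maternal mock below oocytes, 193 and 6 for WT maternal aphidicolin below mock, and 174 and 4 for CKO above WT maternal aphidicolin. Among the 304 positions with at least 1000 reads, a limit chosen after seeing the data, the counts were 68 for WT paternal mock below sperm, 24 for WT maternal mock below oocytes, 8 for WT maternal aphidicolin below mock and 27 for CKO above WT maternal aphidicolin. For WT maternal aphidicolin below mock the share fell from 10.9% to 2.63%, and for the other 3 it was 22.4%, 7.89% and 8.88%, against 23.0%, 9.65% and 8.83%.

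With each library left out in turn, counts ranged from 34 to 229 for WT paternal mock below sperm, from 219 to 274 for CKO above WT paternal mock, from 108 to 261 for WT paternal aphidicolin above mock, from 36 to 81 for WT maternal mock below oocytes, from 44 to 80 for WT maternal aphidicolin below mock and from 27 to 117 for CKO above WT maternal aphidicolin. Differences whose sign turned ranged from -0.321 to 1.42 points for CKO against comparator positions, from -5.61 to 0.252 for sperm against oocytes, from -3.13 to 1.57 for CKO paternal aphidicolin against mock, from -0.747 to 4.07 for CKO maternal aphidicolin against mock, from -1.59 to 3.16 for CKO against WT paternal aphidicolin and from -3.94 to 0.875 for CKO against WT maternal mock. The bin that differed by parent ranged from 8.21 to 9.96 points, with adjusted p from 0.0356 to 0.0425.

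The window-only deviations of same-numbered libraries correlated at over 0.1 in 4 of 9 comparisons. With the replicate number as a block the exact test allows no p below 0.00781. The window tests kept their differences, among them 3.58 points for CKO against WT, with adjusted p from 0.484 to 0.781. The bin kept its 9.08 points and lost its call (exact permutation adjusted p = 0.172). Groups of 2 libraries and the spread between them limit every comparison of the window.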

Other observations

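At 101 CpG sites of the window both strands were read in all 20 libraries. The group means of the strands were 10.3% and 10.4% in WT paternal mock and 19.4% and 19.2% in sperm, and furthest apart in CKO paternal aphidicolin, at 22.8% and 20.6%. At single sites the strands differed by a median of 2.86 points in WT paternal mock to 4.82 points in oocytes. Pearson's r between the strands across the 101 sites ranged from 0.0357 in WT paternal mock to 0.550 in WT maternal aphidicolin, and was 0.324 in sperm. No depth limit beyond 5 reads was set, so sites with few reads counted as much as deep ones. The part of such sites in these correlations was not tested.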
